A study of Rattus norvegicus with 108 samples.

Results

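The genes of the cytosolic ribosome were followed 1 by 1 in single cells of the rat dentate gyrus. Members were chosen by symbol alone, as the table rows named Rpl or Rps followed by a digit, together with Rplp0, Rplp1, Rplp2 and Rpsa and without the Rps6k kinases, which gave 121 of 19127 genes. Of these, 73 were Rpl rows of the large subunit and 48 were Rps rows of the small subunit. The dentate gyrus had been punched at its dorsal (dorDG) and ventral (venDG) ends from male Long-Evans rats, 2 months old at the start, that drank fluoxetine at 18 mg/kg each day (FT) or water (Sham) for 6 weeks. Droplet-based 10x Genomics 3′ libraries gave unique molecular identifier (UMI) counts, each UMI marking 1 captured transcript, for 1289 dorDG and 2058 venDG cells in 19 replicates. The groups were dorDG FT with 4 replicates and dorDG Sham, venDG FT and venDG Sham with 5 each. Every replicate was a pool of several animals, so p-values measure the spread between pools.

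Each ribosome carries 1 copy of nearly every ribosomal protein, and the genes are therefore known for being transcribed in step. The large subunit forms the peptide bond and holds the acidic stalk that recruits elongation factors, whereas the small subunit decodes the messenger RNA. Many of these messages begin with a C and an uninterrupted run of pyrimidines, the 5′ terminal oligopyrimidine (TOP) motif, through which the kinase mTOR sets their translation. A few members have a paralog that can take the same place in the ribosome, such as Rpl22l1 for Rpl22 and Rps27l for Rps27. The genome also holds many processed copies of these genes, and reads of near-identical rows may be divided among them or lost.

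The 121 rows covered 81 gene families. By symbol, 74 rows were the main gene of a family, 39 were numbered rows, pseudogenes or like copies, 7 were paralogs with a protein of their own, and 1, Rps19bp1, names a binding protein and not a ribosomal one. In dorDG the main genes held 76.9% of member UMIs, the copies 21.7% and the paralogs 1.38%. Testing asked for an average of 0.5 UMIs per 10000 or more, and 90 members passed it in each region, so 31 were not tested. In each region 1 member had no UMI in any cell, Rps25-ps2 in dorDG and Rpl36al in venDG.

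The first bases of the transcript are shown for the members on which the later results turn, each as the 30 bases from 10 before to 20 after the annotated start, read 5′ to 3′ on the gene's strand. Sequences and positions are those of RefSeq on the rat assembly GRCr8, matched by symbol, and not of the build used for counting. Capitals mark the pyrimidine run where the annotated start is a C followed by at least 4 further C or T. Rpl13, Rps27l, Rpl22l1 and Rpl18 are shown because their shares were high in oligodendrocyte precursor cells (OPC), Rpl37a and Rps27 because theirs were low there, Rpl41 for its level and Rps2 for its behaviour between reactions.
Rpl13: cggtgcccgatcctttccgctcggccgttc
Rps27l: ttcatttgtcattatttgtggtgtccagag
Rpl22l1: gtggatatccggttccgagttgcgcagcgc
Rpl18: acctggtctagcaggaggcgccatcatggt
Rpl37a: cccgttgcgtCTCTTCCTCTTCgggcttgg
Rps27: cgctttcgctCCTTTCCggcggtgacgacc
Rpl41: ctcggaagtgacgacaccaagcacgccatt
Rps2: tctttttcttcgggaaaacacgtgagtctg
These lie at chr19:68062504-68062533 (plus strand) for Rpl13, chr8:76443648-76443677 (plus) for Rps27l, chr2:113683186-113683215 (plus) for Rpl22l1 and chr1:105325260-105325289 (plus) for Rpl18. The others lie at chr9:81748081-81748110 (plus) for Rpl37a, chr2:177964587-177964616 (minus) for Rps27, chr7:1563478-1563507 (minus) for Rpl41 and chr10:14251838-14251867 (plus) for Rps2. Rpl37a and Rps27 opened with runs of 12 and 7 pyrimidines. The annotated start of Rpl13 falls on a T that opens a run of 8 pyrimidines, so it was not counted. Of 72 member promoters in the RefSeq table, 23 (31.9%) had such a start, against 881 of 33469 promoters of all genes (2.63%). A start without it says only that these letters are not at the annotated position.

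Cells differed widely in how much of their RNA was ribosomal protein message. At a limit of 2% of UMIs in members, 2121 of 3347 cells (63.4%) were ribosome-rich, 777 in dorDG and 1344 in venDG, and 177 cells lay between 1.5% and 2.5%. The median share was 5.61% above the limit and 0.647% below it. Ribosome-rich cells of a replicate held 107326 to 1355155 UMIs. Unless stated otherwise, levels are UMIs per 10000 UMIs of the ribosome-rich cells of a replicate.

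In those cells the levels of single members spanned orders of magnitude. Rpl41, which encodes the smallest ribosomal protein, was the highest with 24.6 ± 2.97 UMIs per 10000 in dorDG (SD, n = 9) and 25.8 ± 3.32 in venDG (n = 10). Rpl37a (14.2 ± 1.29) and Rpl35 (13.8 ± 1.94) followed in dorDG. Next came Rps27 (12.8 ± 1.34), Rpl37.1 (12.7 ± 1.33), Rps16 (12.4 ± 1.42), Rps29 (11.9 ± 1.06), the ubiquitin fusion gene Rps27a (11.2 ± 0.93), Rpl14 (11.0 ± 1.02) and Rpl19 (11.0 ± 0.91). From Rpl37a down, neighbours in this order differed by less than their SD. These 10 genes held 23.2% of member UMIs, and the large-subunit rows together held 62.7%. The counts are of transcript ends and not per length, so the order compares UMIs and not protein output.

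The paralogs were unequal. Rpl22l1 (4.92 ± 0.71 UMIs per 10000 in dorDG) stood above Rpl22 itself (2.79 ± 0.29), and Rpl36al.1 (2.40 ± 0.21) stood above Rpl36a (0.09 ± 0.03). Rpl36a lay under the limit for testing, and reads of near-identical rows may be divided or lost. The order thus compares table rows and need not be that of the genes. Rps27l (0.72 ± 0.19) stood far below Rps27, and Rpl7l1, Rpl3l and Rpl10l stayed under the limit for testing. The members named in the study had ordinary levels of 7.40 ± 0.70 for Rps3, 4.9 ± 0.31 for Rpl18 and 7.32 ± 0.66 for Rpl23a.

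The next question was whether cell types compose their ribosomal messages differently. For this, a member was expressed as its share per 1000 member UMIs of a replicate and type, so that a type with more or fewer ribosomal transcripts in all does not differ by that alone. Types are the authors' names for dorDG clusters, and 9 types had at least 5 ribosome-rich cells in at least 3 replicates. The clusters named Granule, InhibNeuron and ExcitNeuron did not, with 24 of 119, 30 of 147 and 11 of 55 cells ribosome-rich. No comparison between types below includes these neuron clusters. Since the clusters were drawn on these same cells and genes, differences between dorDG types are given as a description, with the standard error (SE) from edgeR's quasi-likelihood fit over replicates, and carry no p-value. A member was counted as different where the adjusted p was at most 0.05 and the log2 difference from the mean of the other types at least 0.32.

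The type names were checked against markers first. AstroSub1, OPC and Microglia2 held the highest levels of all 4 markers of their own list, for example Pdgfra in 93.7% of OPC and Slc1a3 in 100% of AstroSub1 cells, and Oligodend1 was highest for Mag (98.8% of cells) and Mog (100%). In Microglia2, however, P2ry12 was found in 6.25% and Cx3cr1 in 25.0% of cells. Microglia1 was highest for none of the microglial markers. BergGlia had no list of its own, and Slc1a3 was found in 64.7% of its cells. Cells named Endothelial were highest for Flt1 (83.1% of cells) and Pecam1 (64.5%), but Cldn5 was seen in 3.61% of them. The cluster labelled Mossy did not hold the highest level of any mossy-cell marker, and it was highest for the mural genes Pdgfrb (73.4%), Rgs5 (75.0%) and Kcnj8 (57.8%), so the label is used only as a name. The myelin transcript Mbp was found in cells of every type.

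OPC differed from the other types in 25 of 90 members, 14 higher and 11 lower, where 51.3% of all 3601 genes tested differed. Across the 9 types, 63 members differed in at least 1, and Sham replicates alone gave 12 and FT replicates alone 45. In the other types the members that differed were 15 of 90 in AstroSub1 (background 29.0%), 8 in Endothelial (28.4%), 18 in Microglia1 (43.1%), 24 in Microglia2 (47.7%), 4 in the cluster labelled Mossy (28.2%), 21 in Oligodend1 (36.0%), 21 in Oligodend2 (31.9%) and 1 in BergGlia (5.53%). By direction, OPC had 14 higher members (background 47.3%) and 11 lower (4.03%), AstroSub1 8 (25.7%) and 7 (3.28%), and Microglia1 9 (13.6%) and 9 (29.5%). Microglia2 had 12 higher (7.94%) and 12 lower (39.8%), Oligodend1 11 (29.9%) and 10 (6.05%), and Oligodend2 12 (26.5%) and 9 (5.39%). Endothelial had 4 (12.5%) and 4 (15.9%), the cluster labelled Mossy 2 (16.8%) and 2 (11.5%), and BergGlia 0 (4.78%) and 1 (0.750%). These counts and splits lean on the scale, which centres the members on their own sum, so a count below the background says nothing about the members here. With TMM, 80 of 90 members differed in Microglia2 (background 32.0%), 72 in Microglia1 (40.5%), 57 in OPC (35.6%) and 45 in AstroSub1 (24.3%).

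Rpl13, a large-subunit protein gene, gave the clearest difference of OPC. In the 6 OPC replicates its share ran from 33.4 to 78.8 per 1000 member UMIs with a median of 50.1. The 52 values of the other types reached at most 31.8, and the type medians there lay between 10.3 and 16.8. The 6 OPC values thus did not overlap with any other, and the log2 difference was 1.96 ± 0.11 (SE), with 2.12 in Sham replicates alone and 1.94 in FT replicates alone. Within each of the 6 replicates OPC held the highest Rpl13 share, 2.20 to 4.24 times that of the next type.

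Rps27l, the paralog of Rps27 whose gene is known as a p53 target, was the other large difference, at 1.99 ± 0.32. Its OPC shares ran from 2.53 to 3.85 per 1000 member UMIs with a median of 3.48, on 5 to 19 UMIs a replicate, and 3 of 6 values lay above all values of other types. Rpl22l2 (0.99 ± 0.18), Rpl22l1 (0.87 ± 0.16), Rpl18 (0.73 ± 0.13), Rpl6 (0.64 ± 0.16), Rpl36al.1 (0.64 ± 0.20) and Rps9 (0.58 ± 0.13) were also higher in OPC. Rpl22l1, for example, had a median share of 14.6 in OPC and 3.80 in Microglia2, with AstroSub1 (13.3) overlapping OPC.

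Of the members lower in OPC, the stalk gene Rplp1 differed by -0.56 ± 0.18, Rps25 by -0.53 ± 0.17, Rpl37a by -0.51 ± 0.11 and Rps27 by -0.45 ± 0.13. Rpl37a shares were 16.2 to 21.1 in OPC with a median of 18.0, whereas the other type medians lay between 21.2 and 28.2. By subunit, 12 large-subunit and 2 small-subunit rows were higher in OPC, and 5 large-subunit and 6 small-subunit rows were lower. The starts shown above can be read beside this: 1 of 12 higher members with a promoter in the table had a TOP-type start, against 4 of 6 lower members and 21 of 56 tested members. The numbers are small and move with the scale and the region: with TMM, 13 of 33 lower OPC members had such a start, in the venDG OPC class 2 of 10 higher and 2 of 4 lower members had one, and in Microglia2 4 of 7 higher and 2 of 10 lower members did.

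**Figure D1:**
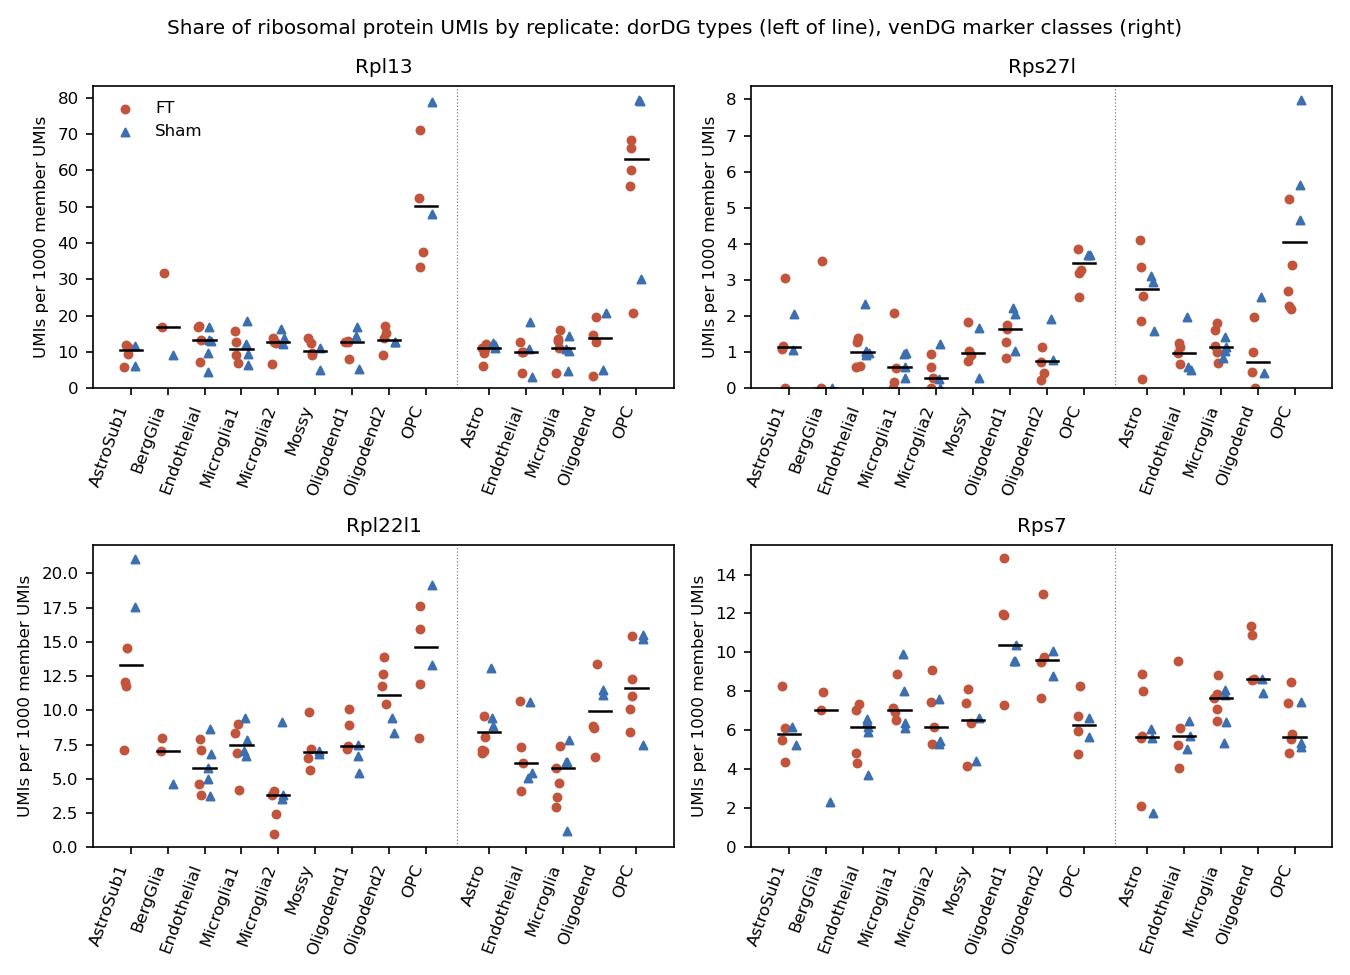
Shares of Rpl13, Rps27l, Rpl22l1 and Rps7 in ribosome-rich cells, as UMIs per 1000 member UMIs (vertical axes), for each dorDG type (left of the dotted line) and each venDG marker class described further on (right), with 1 point per replicate (red circles, FT; blue triangles, Sham) and bars at the medians. In dorDG the 6 OPC points of Rpl13 lie between 33.4 and 78.8, above all 52 points of the other types, whereas the points of the other 3 genes overlap between types.

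The microglial and oligodendrocyte clusters differed in other members. Microglia1 was higher for Rplp0 (0.63 ± 0.10), the base of the ribosomal stalk, for Rps6 (0.63 ± 0.12), the classical substrate of S6 kinase, and for Rps9 (0.62 ± 0.11), and lower for Rpsa (-0.64 ± 0.15), also known as the laminin receptor. Rplp0 shares in Microglia1 ran from 18.9 to 38.4 with a median of 24.5, and 4 of 8 values exceeded all values elsewhere. Microglia2 was lower for Rps27l (-1.49 ± 0.54), Rpl22l2 (-1.32 ± 0.23) and Rpl22l1 (-1.29 ± 0.20). Both oligodendrocyte clusters were higher for Rps7 (0.67 ± 0.14 and 0.53 ± 0.15) and Rplp0 (0.40 ± 0.11 and 0.48 ± 0.12).

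AstroSub1 was lower for Rps6 (-1.13 ± 0.24) and Rpl6 (-0.96 ± 0.26) and higher for Rpl22l1 (0.85 ± 0.21), and the copy Rpl12-ps1 (-1.96 ± 0.71) was the lowest there. Rps6 shares there ran from 1.57 to 8.75 with a median of 4.40, and the upper end overlapped with most types. Endothelial cells were higher for Rpl41 (0.36 ± 0.09) and lower for Rpl36al.1 (-0.60 ± 0.19). The cluster labelled Mossy was lower for Rpl13 (-0.40 ± 0.14) and Rps27a (-0.32 ± 0.11), and BergGlia was lower for Rplp0 (-1.09 ± 0.30) on 3 replicates.

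**Figure D2:**
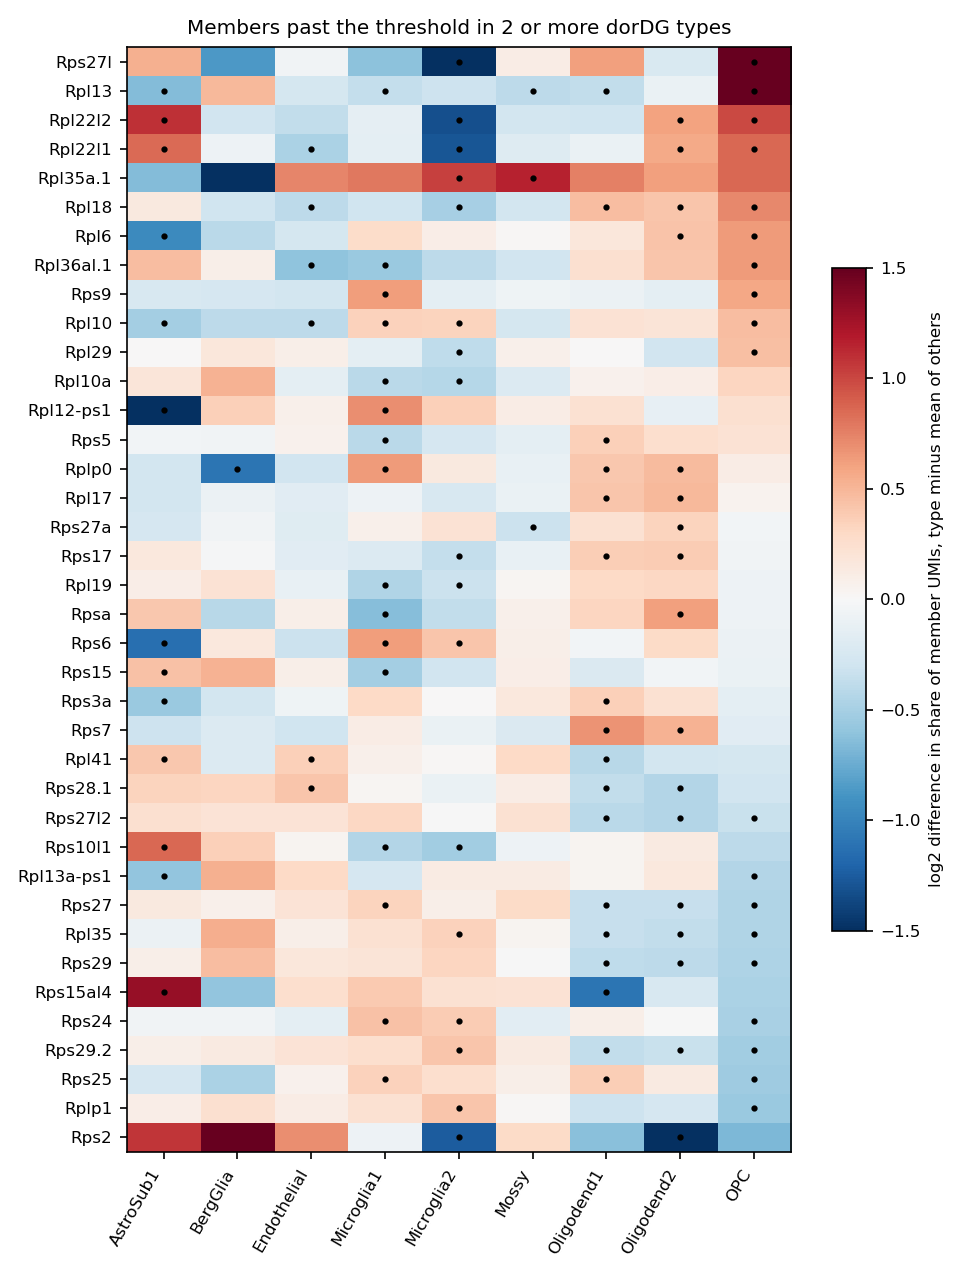
Log2 difference of a member's share of member UMIs in each dorDG type from the mean of the other types (colour), for 38 members (rows) counted as different (dots) in at least 2 of the types (columns). Colours end at 1.5 in either direction, so Rpl13 (1.96) and Rps27l (1.99) in the OPC column lie beyond the scale.

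The types also held unequal amounts of ribosomal transcripts in all, so the members were read on the scale of all transcripts as well, where the balance of higher and lower members differed. The summed share of UMIs in members had medians of 4.26% in AstroSub1, 4.61% in OPC, 4.77% and 4.98% in the oligodendrocyte clusters, 6.06% in Microglia1, 6.68% in the cluster labelled Mossy, 6.98% in Endothelial, 7.16% in BergGlia and 8.59% in Microglia2. These cells were chosen by that share, which bounds it from below. The limit kept 37.3% of AstroSub1, 49.1% of Oligodend1 and 92.2% of Endothelial cells. Over all cells the medians were 3.04% in AstroSub1, 3.72% in Oligodend1, 4.34% in OPC and 4.75% in Oligodend2. They were 5.94% in Microglia1, 6.02% in the cluster labelled Mossy, 6.18% in BergGlia, 6.98% in Endothelial and 8.07% in Microglia2. In ribosome-rich cells with trimmed mean (TMM) scaling over all genes, 80 members were counted higher in Microglia2 (background 32.0%) and 72 in Microglia1 (40.5%). Endothelial had 43 higher (31.8%), and 0 were lower in these types. In OPC 55 were lower and 2 higher (35.6%). The 2 were Rpl13 (1.45 ± 0.12) and Rps27l (1.5 ± 0.31), so they were higher in OPC on both scales, whereas Rpl18 (0.22 ± 0.15) and Rpl22l1 (0.35 ± 0.18) were not counted on this one. AstroSub1 was lower for 45 members and higher for 0 (24.3%).

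The annotation used here covers dorDG alone, although the paper clustered cells of both regions together. The venDG cells are thus not independent of the clustering that gave the types. In venDG, cells were put in 5 classes by detected markers that include no member, a step added after the data had been seen. A class needed at least 2 markers of its list and more than of any other list, with broadly detected markers such as Mbp left out. The classes held 143 astrocyte, 89 endothelial, 189 microglial, 120 oligodendrocyte and 127 OPC cells in 8, 7, 9, 6 and 8 replicates. In dorDG the same rule placed 53 of its 56 OPC cells in the authors' OPC cluster.

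The OPC class differed from the other classes in 19 of 90 members, 12 higher and 7 lower, against a background of 58.8%. Rpl13 differed by the largest amount there: its share was 20.9 to 79.5 with a median of 63.2 in OPC, and class medians lay between 10.0 and 13.7 elsewhere, where the highest value was 20.8. Rpl13 differed by 2.34 ± 0.13 (log2, SE; edgeR quasi-likelihood, adjusted p = 1.9e-18, 8 of 8 replicates with OPC highest). Within a replicate the OPC share was 2.53 to 5.23 times the next class. Rps27l (1.59 ± 0.28, adjusted p = 7.0e-06), Rpl22l1 (0.75 ± 0.14, adjusted p = 2.9e-05) and Rpl18 (0.54 ± 0.15, adjusted p = 0.0019) were higher as well. Rps29 (-0.62 ± 0.14), Rps27 (-0.50 ± 0.12) and Rpl37a (-0.47 ± 0.11) were lower, each with an adjusted p below the threshold of 0.05. With TMM, Rpl13 (1.73 ± 0.15) and Rps27l (0.98 ± 0.26) were the 2 members still higher and 63 were lower (background 43.6%).

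The other venDG classes gave 14 members for astrocytes (27.2%), 11 for endothelial cells (33.5%), 18 for microglia (71.4%) and 17 for oligodendrocytes (31.6%), and 42 members differed in at least 1 class. Microglia were lower for Rpl22l1 (-0.86 ± 0.15) and Rpsa (-0.68 ± 0.15) and higher for Rps29 (0.58 ± 0.12). Oligodendrocytes were higher for Rpl6 (0.75 ± 0.18) and Rps7 (0.65 ± 0.18). Astrocytes were lower for Rpl6 (-0.93 ± 0.20), Rpl10 (-0.65 ± 0.15) and Rps6 (-0.62 ± 0.15), and endothelial cells were lower for Rpl13 (-0.84 ± 0.17).

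Members counted in a dorDG type could thus be looked up in the matching venDG class. Of the 25 members of OPC, 16 were counted in the same direction (64.0%; all genes 84.0%). All 25 had the same sign, as did 1746 of 1767 genes of any kind. The shares were 7 of 15 for AstroSub1 (46.7%; all genes 64.1%), 3 of 8 for Endothelial (37.5%; 74.2%), 10 of 18 for Microglia1 (55.6%; 85.8%) and 12 of 24 for Microglia2 (50.0%; 87.9%). Oligodend1 gave 9 of 21 (42.9%; 61.8%) and Oligodend2 12 of 21 (57.1%; 65.6%). No member was counted in the opposite direction, and among all genes such counts were also few, from 0 in OPC to 12 in Microglia1.

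Other genes of translation were read from lists in the same OPC fits. Of the ribosome biogenesis genes, the box C/D snoRNP proteins Nop56 (1.34 ± 0.32) and Nop58 (2.08 ± 0.37) and nucleophosmin, Npm1 (0.76 ± 0.26), were higher, 3 of 4 tested, and in venDG the same genes were higher, 3 of 5 tested, with Nop56 at 1.63 ± 0.24 and Nop58 at 1.31 ± 0.29. Of the initiation factors, 11 of 28 tested were higher and 0 lower in each region, among them the cap-binding Eif4e (0.92 ± 0.34 in dorDG). These counts stand beside 47.3% of all genes higher in dorDG and 51.9% in venDG. The median difference over all genes tested was 0.72 in dorDG and 0.70 in venDG OPC on this scale, above the medians of the initiation factors (0.55 and 0.51). Naca and Btf3 of the nascent chain complex were higher in both. Of 4 genes tested from the elongation list, Eef2 (0.54 ± 0.16) and Eef1d (0.71 ± 0.23) were higher in dorDG. Tpt1 (-0.58 ± 0.13), which stands on that list but is not an elongation factor, was lower there. In venDG, Eef1d (0.84 ± 0.20) was higher and Tpt1 (-0.61 ± 0.12) lower, and Eef2 (0.23 ± 0.16) did not pass. With TMM, Tpt1 was lower in both (-1.08 ± 0.15 and -1.22 ± 0.15), and Eef2 and Eef1d passed in neither.

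The balance of the subunits differed between types to a smaller degree. The ratio of large-subunit to small-subunit UMIs was 1.90 to 2.09 in OPC with a median of 1.97, above the maxima of the other types, which lay between 1.68 and 1.81. Medians elsewhere ran from 1.56 in BergGlia to 1.79 in Oligodend1, and those ranges overlapped. Rpl13 is itself a large-subunit gene and is part of this ratio.

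FT was compared with Sham in ribosome-rich cells, the question being whether fluoxetine changed single ribosomal genes once cells with few ribosomal messages are set aside. In dorDG 0 of 90 members passed (adjusted p at most 0.2 and log2 change at least 0.32, edgeR quasi-likelihood), with a background of 0% of 3800 genes, and 0 members reached an unadjusted p of 0.05. In venDG 0 of 90 passed (background 0% of 3698), with 3 members at an unadjusted p under 0.05. DESeq2 called 0 members in either region, with 0 and 5 members under 0.05 unadjusted. The median log2 change of members was 0.03 in dorDG and 0.12 in venDG, beside -0.01 and 0.00 over all genes. The test of a region difference gave 0 of 90 members (0%), with 3 under 0.05 unadjusted.

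The members at the ends of the dorDG order show how far replicates spread. Rps14, a gene of the small subunit, had 0.796, 0.948, 0.710 and 1.07 UMIs per 10000 in the FT replicates and 0.889, 0.943, 0.135, 0.446 and 0.351 in Sham (log2 change 0.51 ± 0.38). The FT values overlapped with the upper Sham values. Rps15-ps2 (0.40 ± 0.23), Rpl31 (0.35 ± 0.30) and Rplp1 (0.32 ± 0.61) were next, and Sham replicates 3 and 5 were the lowest Sham values for each of these genes. Rplp1 had 4.69, 6.48, 3.87 and 4.74 in FT and 6.88, 7.52, 0.406, 2.32 and 1.11 in Sham, so Sham held both the highest and the lowest values. At the other end stood Rps29.1 (-0.27 ± 0.21), Rpl5 (-0.22 ± 0.16), Rpl12-ps1 (-0.20 ± 0.27) and Rps15al4 (-0.19 ± 0.39).

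In venDG the ends of the order were occupied by partly the same genes with the opposite sign. Rps14 had 0.493, 0.376, 0.273, 0.640 and 0.511 in FT and 0.331, 0.993, 0.559, 0.692 and 1.42 in Sham (log2 change -0.83 ± 0.35, adjusted p = 0.90). Rplp1 (-0.85 ± 0.39), Rps19l1 (-0.78 ± 0.39) and Rpl26-ps1 (-0.66 ± 0.34) lay beside it. Rpl22 had 3.02, 3.31, 3.79, 3.49 and 2.93 in FT and 2.19, 2.41, 2.52, 3.20 and 2.63 in Sham (0.32 ± 0.15), and 1 Sham value lay inside the FT range. Rps2 (0.95 ± 0.63) leaned on FT replicate 1, where it had 3.12 UMIs per 10000 against 0.265 to 1.38 in the other FT replicates, and the change was 0.16 without it. Rplp2 (0.34 ± 0.17) and Rpl12 (0.31 ± 0.16) were the remaining ones at the upper end.

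The genes that the study names did not pass the limits in ribosome-rich cells of all types together. Rps3 changed by 0.01 ± 0.14, Rpl18 by 0.06 ± 0.13 and Rpl23a by 0.00 ± 0.14 (log2, SE) in dorDG ribosome-rich cells. In venDG the changes were 0.17 ± 0.15, -0.03 ± 0.15 and 0.06 ± 0.13. Within types, 0 members passed in Endothelial (0%), Microglia1 (0%), Microglia2 (0%) and Oligodend1 (0%), which had at least 3 replicates a group. Unadjusted p fell under 0.05 for 0, 0, 2 and 3 members, and DESeq2 called 0 in each, with 0 under 0.05. The study names these genes for single types, of which Oligodend1 could be tested: there Rps3 stood at -0.02 ± 0.23, Rpl18 at 0.25 ± 0.23 and Rpl23a at 0.29 ± 0.23 in ribosome-rich cells. Over all Oligodend1 cells 19 of 83 members passed, all higher in FT (background 6.15%), with a median of 0.64, among them Rpl18 (0.84 ± 0.26) and Rpl23a (0.80 ± 0.26) but not Rps3 (0.45 ± 0.26). Inhibitory neurons had too few ribosome-rich cells per replicate for a test, and they were not fitted over all cells.

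Without the limit on ribosomal share the dorDG comparison looked different. Over all cells 56 of 87 members passed, all higher in FT, where the background was 28.6% (12.4% of genes higher), and all 87 changes were positive with a median of 0.59. Rps3 changed by 0.55 ± 0.26 and Rpl18 by 0.60 ± 0.27, both past the limits, and Rpl23a by 0.56 ± 0.28, which was not. Of the lists, 5 of 24 initiation factors and 3 of 5 fusion and ribosome-associated proteins (Btf3, Naca and Gnb2l1) were higher. Of the elongation list 0 of 4 genes passed, and Snhg11, a noncoding RNA held in the nucleus, fell by 1.06 (SE 0.43). Ribosome-rich cells were 57.9% to 85.5% of cells in the FT replicates and 28.0% to 68.1% in Sham. Replicates 1 and 2 also sum a first and a second reaction, and the second held far less ribosomal message, as given further on. Cells of the second and first reaction numbered 132 and 98 in Sham replicate 1, and 77 and 61 in Sham replicate 2. In FT they numbered 23 and 120 in replicate 1, and 80 and 117 in replicate 2. In cells under the limit 0 of 55 members passed (0.525% of genes), with 8 under an unadjusted p of 0.05 and a median of 0.59. Over all venDG cells 0 of 87 members passed (0%), with 4 under 0.05 unadjusted, and the ribosome-rich percentages were 49.7% to 83.1% in FT and 38% to 81.1% in Sham. The part that this percentage plays in the dorDG result was not tested beyond the comparison of ribosome-rich cells. The part of the mix of reactions in the dorDG results over all cells was not tested, and it cannot be told apart from treatment there.

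**Figure D3:**
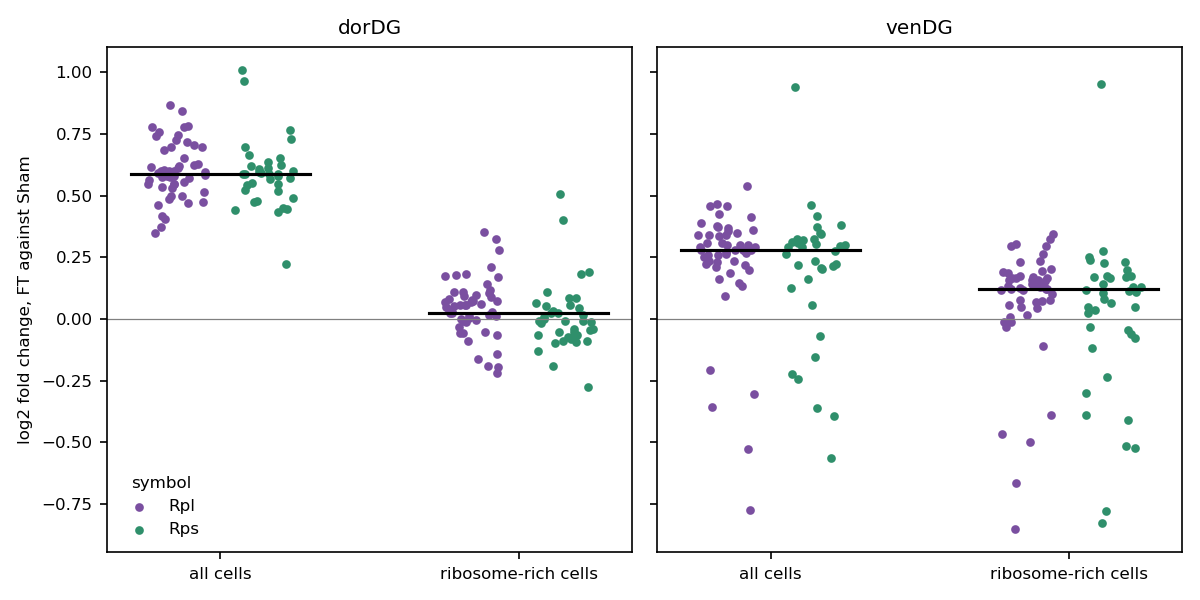
Log2 change from Sham to FT (vertical axis) of each tested member, 1 point per gene (purple, Rpl; green, Rps; sideways spread without meaning), over all cells and over ribosome-rich cells of dorDG (left) and venDG (right), with bars at the medians. The dorDG median is 0.59 over all cells and 0.03 in ribosome-rich cells, and the points of ribosome-rich cells lie between -0.27 and 0.51 in dorDG and between -0.85 and 0.95 in venDG.

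Summed values in ribosome-rich cells gave no p under 0.05. The log2 ratio of large-subunit to small-subunit UMIs was 0.711, 0.774, 0.771 and 0.773 in dorDG FT and 0.721, 0.665, 0.750, 0.753 and 0.799 in Sham. The means, 0.76 ± 0.031 (SD, n = 4) and 0.74 ± 0.050 (n = 5), differed by less than the spread (two-sided exact permutation test, p = 0.556, adjusted 0.556). In venDG the means were 0.76 ± 0.023 and 0.73 ± 0.058 (n = 5 each, exact permutation p = 0.262, adjusted 0.524). The summed share of UMIs in members was 6.02% ± 0.417 against 5.75% ± 0.331 in dorDG (exact permutation p = 0.333) and 6.20% ± 0.395 against 5.70% ± 0.461 in venDG (exact permutation p = 0.0873, adjusted 0.175). The cells were chosen by this share, which bounds it from below. The smallest p possible in these two-sided exact permutation tests is 0.0159 for dorDG and 0.00794 for venDG. Within the 4 types the ratio gave exact permutation p-values from 0.343 to 0.873.

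Replicates themselves differed in which members they held. Among the 19 first or sole reactions, the chi-square per degree of freedom of a member's share over libraries had a median of 3.32 for the 90 members with at least 500 UMIs. It was over 5 for 26 members, 12 of them copies, and under 2 for 23. Rpl32.1 (0.895) and Rpl36al.1 (0.936) varied no more than counting error.

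Rplp1, which encodes a stalk protein, varied most (80.0). Its share per 1000 member UMIs was 7.94, 10.7, 5.91 and 8.5 in dorDG FT and 12.3, 14.3, 0.658, 3.9 and 1.95 in dorDG Sham. In venDG it was 6.30, 3.75, 1.10, 2.44 and 6.53 in FT and 8.28, 10.7, 3.67, 4.73 and 10.5 in Sham. The lowest and the highest library were both dorDG Sham, while Rplp0, which forms the base of the stalk, stayed between 16.6 and 21.4 throughout. Rplp2, the stalk partner of Rplp1, lay between (6.31) and ran from 5.77 to 10.3. Rps2 (45.6) ran from 0.438 to 5.38, with its highest share in venDG FT replicate 1. Rpl26-ps1 (23.4), Rpl31 (23.1), Rps27l3 (21.3) and Rps15-ps2 (18.0) were also among the 10 most variable, and venDG FT replicate 3 was the lowest library for Rpl26-ps1, Rpl31 and Rps15-ps2.

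Rpl13 came next (69.99) and had low libraries of its own. Its share was 17.9, 16.1, 10.1 and 16.8 in dorDG FT, 16.7, 11.6, 15.2, 5.51 and 20.2 in dorDG Sham, 19.99, 16.8, 5.48, 14.7 and 18.3 in venDG FT and 21.7, 16.96, 14.99, 7.96 and 11.9 in venDG Sham. The low value ran through the cell types of a library. In venDG FT replicate 3 the OPC class had 20.9 and the other classes 3.26 to 6.12, and in venDG Sham replicate 4 OPC had 30.0 and the others 3.22 to 11.8. In dorDG FT replicate 4 OPC had 33.4 and the other types 5.90 to 9.68. OPC was the highest within these libraries too, and the other types of the same libraries were low.

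**Figure D4:**
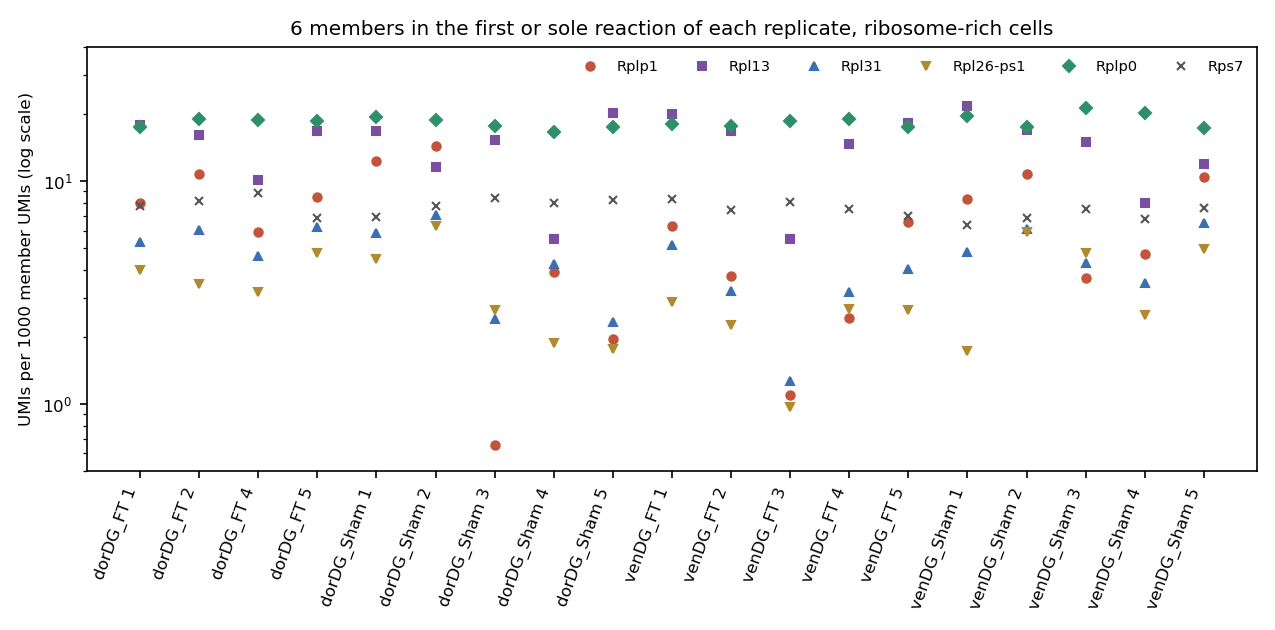
Share of 6 members per 1000 member UMIs (vertical axis, log scale) in each of the 19 first or sole reactions, by group and replicate (horizontal axis). Rplp1 runs from 0.658 to 14.3 and Rpl13 from 5.48 to 21.7, whereas Rplp0 keeps between 16.6 and 21.4.

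In 8 replicates the labels list 2 reactions of the same tissue, called first and second here by the number in the reaction's name alone. Suspensions of cells and of nuclei were both made, and which reaction held which is not given in the sources used here. Members made up 5.09% to 5.98% of UMIs in the first reactions and 0.642% to 1.53% in the second. The median UMI count per cell was 3262 to 6241 in the first and 1516 to 5323 in the second, and the nuclear noncoding RNA Snhg11 was at 0.049 to 1.56 UMIs per 10000 in the first and 2.28 to 10.2 in the second.

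Of 84 members tested, 83 were higher in the first reaction (background 77.5% of 4378 genes; 37.6% higher), with a median log2 difference of 3.03. The exception was Rps2, a gene of the small subunit. It had 0.37 to 3.03 UMIs per 10000 in the first reactions, with a median of 0.52, and 0.71 to 1.81 in the second, with a median of 1.33. The ranges overlapped, and the difference of -0.45 ± 0.35 did not pass (adjusted p = 0.25). As a share of member UMIs Rps2 was 0.66 to 5.34 per 1000 in the first and 6.14 to 18.2 in the second reactions, with no overlap. Rpl29 (2.04 ± 0.21), Rpsa (2.13 ± 0.24) and Rpl5 (2.15 ± 0.22), the last a partner of 5S ribosomal RNA, had the smallest gains. Rpl27-l1 (3.94 ± 0.38), Rps15al2 (3.91 ± 0.33), Rps19 (3.90 ± 0.44) and Rpl22l2 (3.82 ± 0.26) had the largest.

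Scaled to the summed members, 24 of 84 differed between reactions (background 88.7%), 17 higher and 7 lower in the first. On this scale the difference reversed for Rpl29 (-0.85 ± 0.23), Rpsa (-0.75 ± 0.24) and Rpl5 (-0.72 ± 0.26), and Rps2 stood at -3.34 ± 0.32 (edgeR quasi-likelihood, adjusted p = 1.7e-09). Among ribosome-rich cells of both reactions, a comparison added after seeing the data, 69 of 868 cells in 7 replicates being of the second, 77 of 89 members differed with TMM scaling (background 37.5%), 76 of them higher in the first. The subunit ratio was lower in the first reaction in 7 of 8 replicates (mean log2 difference -0.19, two-sided exact sign-flip permutation test, p = 0.0156). Without Rps2 it was lower in 8 of 8 (-0.24, exact permutation p = 0.00781, which is the lower bound for 8 pairs). Rps2 was the exception in this same comparison, a small-subunit row with a higher share in the second reactions. Leaving it out moves the difference this way by itself, so nothing further is read from that p. Genes of the elongation list, Tpt1 among them (4 of 4), fusion and ribosome-associated proteins (5 of 5) and initiation factors (19 of 21) were higher in the first reaction. Eef2 stood at 2.08 ± 0.19, whereas Mtor (-1.38 ± 0.19) was lower.

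**Figure D5:**
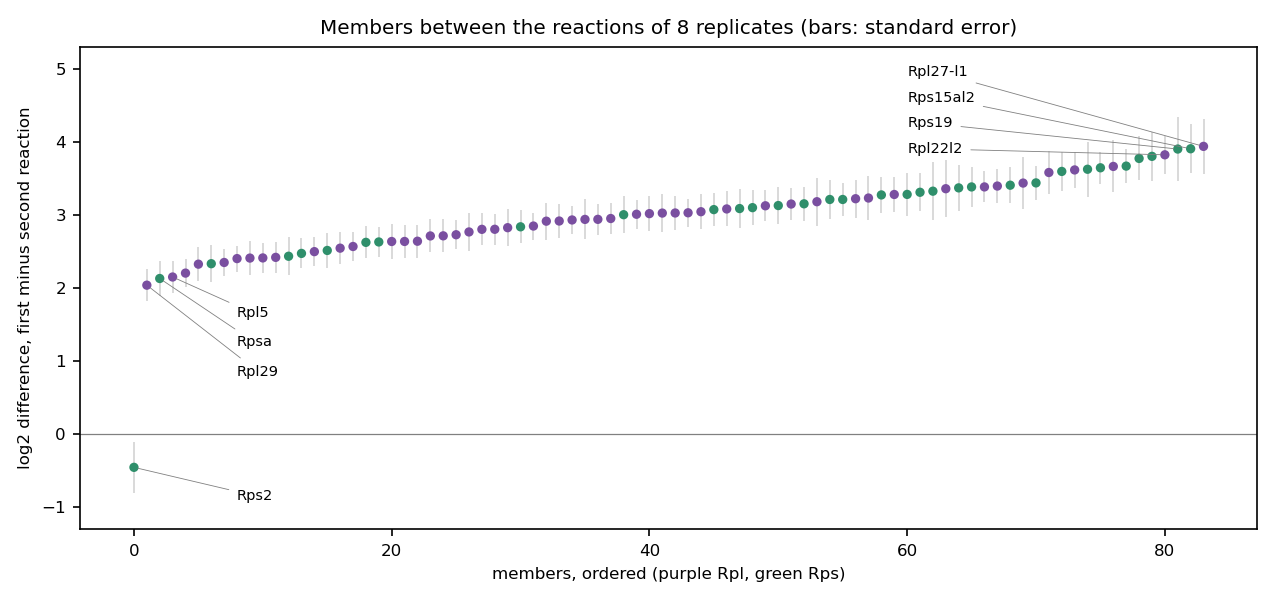
Log2 difference between the first and the second reaction of 8 replicates for the 84 tested members, in order, with bars of the standard error (purple, Rpl rows; green, Rps rows). Rps2 at -0.45 is the only point under 0, and the others lie between 2.04 and 3.94.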

How the data were processed

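Per the labels, dentate gyrus tissue pooled from several animals was run on the 10x Genomics 3′ v2 platform as 27 reactions with 4 index libraries each. Per the paper, papain was used for the cell suspension, and nuclei were isolated from an aliquot by a 10x Genomics protocol. The authors deposited UMI counts per gene and cell, and the submitters' processing notes name Cell Ranger, Seurat 3 and the rat build rn5. The deposited counts were used as they stand, with the authors' cell types for dorDG. A log-normalized venDG table was not used here, and 170 venDG cells of a second suffix, 167 of which shared a barcode with another cell, were left out. Between reactions, 3 dorDG and 5 venDG barcodes recurred. No doublet caller was run.

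UMIs were summed per replicate, and per replicate and type with at least 5 ribosome-rich cells. Genes averaging 0.5 UMIs per 10000 or more entered edgeR 4.0.16 (R 4.3.3), with the quasi-likelihood F-test and Benjamini-Hochberg adjustment over all genes tested. The SE was taken from the F statistic. FT was set against Sham with TMM scaling (adjusted p at most 0.2, log2 change at least 0.32), and types, classes and reactions within replicates with the replicate as a block (adjusted p at most 0.05, log2 difference at least 0.32). Types and classes used the summed members as library size. Summed ratios and shares were compared with exact permutation tests (scipy 1.17.1, numpy 2.4.6, pandas 2.3.3, Python 3.11.15). DESeq2 1.42.0, other scalings, other limits on cells and left-out replicates were alternatives. The fits were tested on simulated data.

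Ribosome-rich cells of a replicate numbered 16 to 285 and held 6272 to 87242 member UMIs, with 5.41% to 9.65% of UMIs in mitochondrial genes. Replicates of a group differed beyond counting error in all 36 pairs (chi-square per degree of freedom 2.96 to 13.8). Counting precision is limited for members with few UMIs in a type.

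The members and lists were chosen with earlier results of these data known. Members were named if they were among the 10 highest levels, at either end of a comparison, paralogs or named by the study, and others were chosen after their values were seen. Some single genes are not reported here.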

Additional observations from a re-analysis of the deposited data

Results flagged for a closer look

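Among 40 groups of 4 or 5 replicates examined, 3 held a replicate that stood apart from the rest of its group by Dixon's criterion, and chance alone sets apart about 1 in 20 groups. The log2 ratio of large-subunit to small-subunit UMIs was 0.71 in dorDG FT replicate 1 and 0.771 to 0.774 in the other dorDG FT replicates. Rps15al4, a numbered row of the Rps15a family, had 1.49 UMIs per 10000 in dorDG Sham replicate 2 and 0.378 to 0.692 in the others. Rpl26-ps1 had 0.627 UMIs per 10000 in venDG FT replicate 3, where the others had 1.5 to 1.79, and the same replicate was the lowest of all 19 libraries for Rpl31 and Rps15-ps2 as shares of member UMIs. What sets these replicates apart was not tested.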

How the results depend on the processing

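In ribosome-rich cells FT against Sham gave 0 members in each region under DESeq2, every other scaling, filter and limit on cells tried, and without any 1 replicate. Replicates with a second reaction and those without, taken apart, also gave 0. These sets left few replicates a group, so a call was hardly possible there and nothing is read from that 0. Over all cells it gave 56 members in dorDG and a dorDG share difference of 1.59 percentage points (exact permutation p = 0.0159). Within types it gave 19 members over all cells, all in Oligodend1, where 6.15% of genes passed. Only Endothelial, Microglia1, Microglia2 and Oligodend1 were fitted so, and the neuron clusters were not. The FT difference in the log2 ratio lay at 0.00152 to 0.035 in dorDG and 0.016 to 0.054 in venDG as replicates were left out, and that in the share at 0.092 to 0.417 and 0.357 to 0.671 percentage points. Without venDG Sham replicate 1 the ratio (0.054, exact permutation p = 0.0476) and without venDG Sham replicate 4 the share (0.671, exact permutation p = 0.0317) passed 0.05 unadjusted.

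Members different in at least 1 dorDG type numbered 12 in Sham replicates alone and 45 in FT replicates alone, against 63, and 50 to 63 without 1 replicate. TMM raised the venDG classes from 42 to 83 members, and they numbered 35 to 44 without 1 replicate. Under TMM Rpl36al.1 in Microglia1 turned to 0.034. Between reactions 24 members differed with the summed members as library size, where Rpl29 (-0.85), Rpsa (-0.75) and Rpl5 (-0.72) reversed, and 82 to 84 without 1 replicate. Rows summed per family, gave 50 families in types and 65 between reactions, and first or sole reactions alone gave 64 members in types; both were added after seeing the data. Among single members, counts of members and summed values recomputed under these alternatives, 1270 were classed as the same. Of the rest, 118 no longer passed, 29 newly passed and 4 reversed, and 33 counts of members moved by over 1.5 times or from no member. A value that had not passed was classed as the same even where its sign turned. Reversed was used only for values that had passed. Why these moved was not tested.

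Same-numbered FT and Sham replicates did not deviate together in every pair (correlations 0.026 to 0.210 in dorDG and -0.092 to 0.253 in venDG; 4 of 9 correlated best with their own number), so the numbers were not taken as pairs. The replicate block gave 0 members in both regions, ratio differences of 0.02 and 0.03 (exact sign-flip permutation p = 0.75 and 0.312) and share differences of 0.38 and 0.50 percentage points (exact permutation p = 0.25 and 0.0625). The share was higher in FT in 3 of 4 dorDG and 5 of 5 venDG same-numbered replicates, where 0.125 and 0.0625 are the smallest p possible. Without the replicate block, types gave 58 members, venDG classes 39 and reactions 83. Shallow types limit the members with few UMIs, such as Rps27l.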
